A study of Mus musculus with 2 samples.

Results

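The genes described here encode the nuclear pore complex, the receptors that carry cargo through it, and the proteins of the Ran cycle that drive them. They were chosen by gene symbol alone, as protein-coding transcripts in GENCODE M21 whose symbols match the names of nucleoporins (Nup), karyopherins (Kpna and Kpnb), importins (Ipo), exportins (Xpo and Cse1l), transportins (Tnpo), Ran and its partners, and Tpr, Ndc1, Pom121, Rae1 and Ahctf1. This rule found 59 genes with 129 transcripts, of 21587 genes and 49490 protein-coding transcripts in the table. A known role in nuclear transport was assigned to 56 of the genes. The other 3, Nupr1, Nupr1l and Ranbp9, were matched by symbol alone, and Nupr1 and Nupr1l are stress-related regulators of transcription, not pore proteins. No protein-coding transcript was matched for Nup58 (also called Nupl1) or Kpna5.

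The cells were wild-type mouse embryonic stem cells of the DTCM23/49 XY line, depleted of feeder cells and kept in serum with leukemia inhibitory factor. They received 4-thiouridine (4sU), a uridine analogue that is built into new RNA, for 10 min. RNA that carried 4sU (labeled) and the remaining RNA (unlabeled) were sequenced as 1 library each, both of biological replicate 1. With 1 library per pool no difference has a replicate check and no test was possible, so values below are descriptions of these 2 libraries. One label calls the unlabeled library total RNA and another calls it preexisting RNA, and it was used as the latter.

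In the deposited table, each transcript has an exon value and most have an intron value, named TPM by the authors, but the column totals are 10 times those of a usual TPM table. TPM below stands for the unit of that table, which is scaled per length, and read depth is unknown. The level of a gene is its mean exon TPM over its protein-coding transcripts. Whether reads shared by isoforms were divided among them cannot be told from the values, so levels of genes with several isoforms carry that uncertainty, while the labeled over unlabeled ratio of a gene does not depend on the choice of mean or sum. The markers of embryonic stem cells were present, with all 8 of the list between 72.9 TPM and 2193 TPM in the unlabeled library. The 5 fibroblast markers, for feeder cells, lay between 0 and 14.5 TPM (Postn and Col1a2 at 0), and the 5 markers of differentiated lineages lay between 0 and 6.41 TPM (Gata6 and Sox17 at 0). Each library holds RNA of a whole culture, so fewer cells with a transcript and less of it per cell cannot be told apart.

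The nuclear pore is a ring-shaped assembly set in the nuclear envelope, with outer rings, an inner ring, a central channel lined by phenylalanine-glycine repeats, filaments on the cytoplasmic side and a basket on the nuclear side. Importins and exportins bind cargo and cross the channel, and Ran bound to GTP, made in the nucleus by Rcc1 and hydrolysed on the cytoplasmic side with the help of Rangap1, releases import cargo and loads export cargo. Most of these genes are expressed in all cell types, and stem cells are known to rely on particular nucleoporins and importin alpha proteins during differentiation.

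Promoters are shown for Ran, Ranbp1 and Rcc1, which were all higher than the median gene in labeled over unlabeled RNA (below), and for Xpo1 and Kpnb1, which were lower. Each runs 5′ to 3′ on the gene's own strand, from 250 bases before the start to 50 after it, in the RefSeq table on GRCm38.p6. Capitals mark matches, on either strand, to 6 motifs that were searched: CCAAT (the NF-Y box), CCGGAAG (ETS factors), GCGCATGC (NRF1), TTTGAA and TTCGAA (forms of the cell cycle homology region) and TATAAA (the TATA box). Matches of GCGCATGC can overlap each other. Ran lies at chr5:129019906-129020205 on the plus strand, Ranbp1 at chr16:18248645-18248944 on the minus strand, and Rcc1 at chr4:132345701-132346000 on the minus strand. Xpo1 lies at chr11:23255791-23256090 on the plus strand and Kpnb1 at chr11:97187843-97188142 on the minus strand.
Ran: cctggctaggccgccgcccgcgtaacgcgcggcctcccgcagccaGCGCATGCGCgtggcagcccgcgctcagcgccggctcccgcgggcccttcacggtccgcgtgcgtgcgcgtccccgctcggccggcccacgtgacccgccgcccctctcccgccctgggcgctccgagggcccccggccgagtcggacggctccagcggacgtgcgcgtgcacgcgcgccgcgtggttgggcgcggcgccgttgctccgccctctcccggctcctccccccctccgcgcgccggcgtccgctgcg
Ranbp1: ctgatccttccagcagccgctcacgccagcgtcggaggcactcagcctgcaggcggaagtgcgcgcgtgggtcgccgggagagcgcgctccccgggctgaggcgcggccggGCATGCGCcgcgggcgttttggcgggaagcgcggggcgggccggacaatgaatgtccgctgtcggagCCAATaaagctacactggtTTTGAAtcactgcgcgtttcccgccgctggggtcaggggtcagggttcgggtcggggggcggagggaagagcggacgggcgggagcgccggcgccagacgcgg
Rcc1: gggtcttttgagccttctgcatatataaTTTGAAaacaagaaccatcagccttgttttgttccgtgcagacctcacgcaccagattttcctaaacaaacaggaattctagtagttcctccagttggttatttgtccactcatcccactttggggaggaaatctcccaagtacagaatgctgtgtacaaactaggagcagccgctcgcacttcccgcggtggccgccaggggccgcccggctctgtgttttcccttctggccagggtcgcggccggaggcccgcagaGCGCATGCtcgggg
Xpo1: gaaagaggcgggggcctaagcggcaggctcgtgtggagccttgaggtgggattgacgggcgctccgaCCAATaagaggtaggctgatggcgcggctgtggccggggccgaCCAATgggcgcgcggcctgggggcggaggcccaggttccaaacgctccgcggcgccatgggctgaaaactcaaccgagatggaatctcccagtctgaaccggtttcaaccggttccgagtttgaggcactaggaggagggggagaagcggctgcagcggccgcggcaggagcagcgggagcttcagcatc
Kpnb1: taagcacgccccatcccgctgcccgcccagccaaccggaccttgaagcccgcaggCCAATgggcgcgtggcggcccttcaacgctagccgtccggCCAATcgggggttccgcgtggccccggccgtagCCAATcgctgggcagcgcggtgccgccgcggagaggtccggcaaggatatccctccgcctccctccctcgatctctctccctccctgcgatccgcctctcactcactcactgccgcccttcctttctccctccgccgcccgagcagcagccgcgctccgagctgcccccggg

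All 3 of the Ran cycle promoters shown hold GCGCATGC, and the Kpnb1 and Xpo1 promoters hold CCAAT 3 times and 2 times. The motifs did not follow the direction of the difference throughout. The promoter of Rangap1, a Ran cycle gene below the median gene, held no GCGCATGC, while those of Xpo5 and Nup50, also below it, did. CCAAT was also in promoters of Ranbp1, Nup37, Nup62 and Nupl2, which lay above the median gene. The table gave 55 promoters for 48 of the 59 genes, among 32851 promoters in all. GCGCATGC was found in 7 of the 55 promoters, those of Nup107, Nup50, Nup62, Ran, Ranbp1, Rcc1 and Xpo5, or 12.7% against 2.71% of all promoters. CCAAT was found in 47.3% against 37.4%, CCGGAAG in 16.4% against 8.86%, TTTGAA in 25.5% against 17.9%, TTCGAA in 1.82% against 1.56% and TATAAA in 9.09% against 13.6%. Base composition differed along with these shares, since the median promoter here held 27 CpG dinucleotides and 64% G and C, against 7 and 52.7% over all promoters. Among promoters with at least 20 CpG, GCGCATGC was in 5 of 37 (13.5%) against 6.22% of 8701, CCAAT in 51.4% against 32.9%, TTTGAA in 21.6% against 6.99%, CCGGAAG in 16.2% against 19.6%, TATAAA in 5.41% against 3.67% and TTCGAA in 2.70% against 2.01%. The share for CCGGAAG thus lay above that of all promoters but below that of the CpG-rich ones, and the share for TATAAA the other way round. A match is a description of the letters and not a binding site.

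The comparison of labeled with unlabeled RNA asks how much of each gene's RNA was new. The difference of a gene is the log2 of its labeled over its unlabeled exon level, relative to the median of 14127 protein-coding genes. These are the genes whose exon TPM, summed over their protein-coding transcripts and averaged over the libraries, was above 1, and their levels as defined above reach down to 0.0977 TPM. The median gene itself had a labeled level 0.837 times its unlabeled level. Of the 59 genes, 58 passed that filter, and the exception was Kpna7, an importin alpha known from oocytes and early embryos. Its exons were listed at 0 in both libraries, while its introns had 2.95 TPM in the labeled and 0.738 TPM in the unlabeled library. The span of Kpna7 overlaps Arpc1a, on the opposite strand and with a mean exon level of 73.5 TPM.

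Transport genes were mostly low in labeled RNA relative to other genes. The 58 genes had a median difference of -0.72 (quartiles -1.12 and -0.01), and 44 of them lay below the median gene. Of these, 20 genes (34.5%) were at least 2-fold below the median gene, against 14.8% of all genes tested. Only 3 genes (5.17%), Nupr1, Nupr1l and Nupl2, were at least 2-fold above it, against 21.9% of all genes tested. The differences ran from -2.12 for Tnpo1 to 1.55 for Nupr1. At the lower limit Ipo9 (-1.07) lay just inside and Ipo11 (-0.99) just outside, and at the upper limit Nupl2 (1.24) lay inside and Nup37 (0.98) outside. The number at least 2-fold below was 12 of 56 (21.4%) at a higher minimum, a summed exon TPM above 10, against 11.3% of all genes, and the median gene was then 0.14 lower on the log2 scale. With the minimum put on the level itself, a choice made after seeing the data, it was 20 of 58 against 14.03% of all genes for levels above 1, and 10 of 56 (17.9%) against 9.77% for levels above 10.

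**Figure D1:**
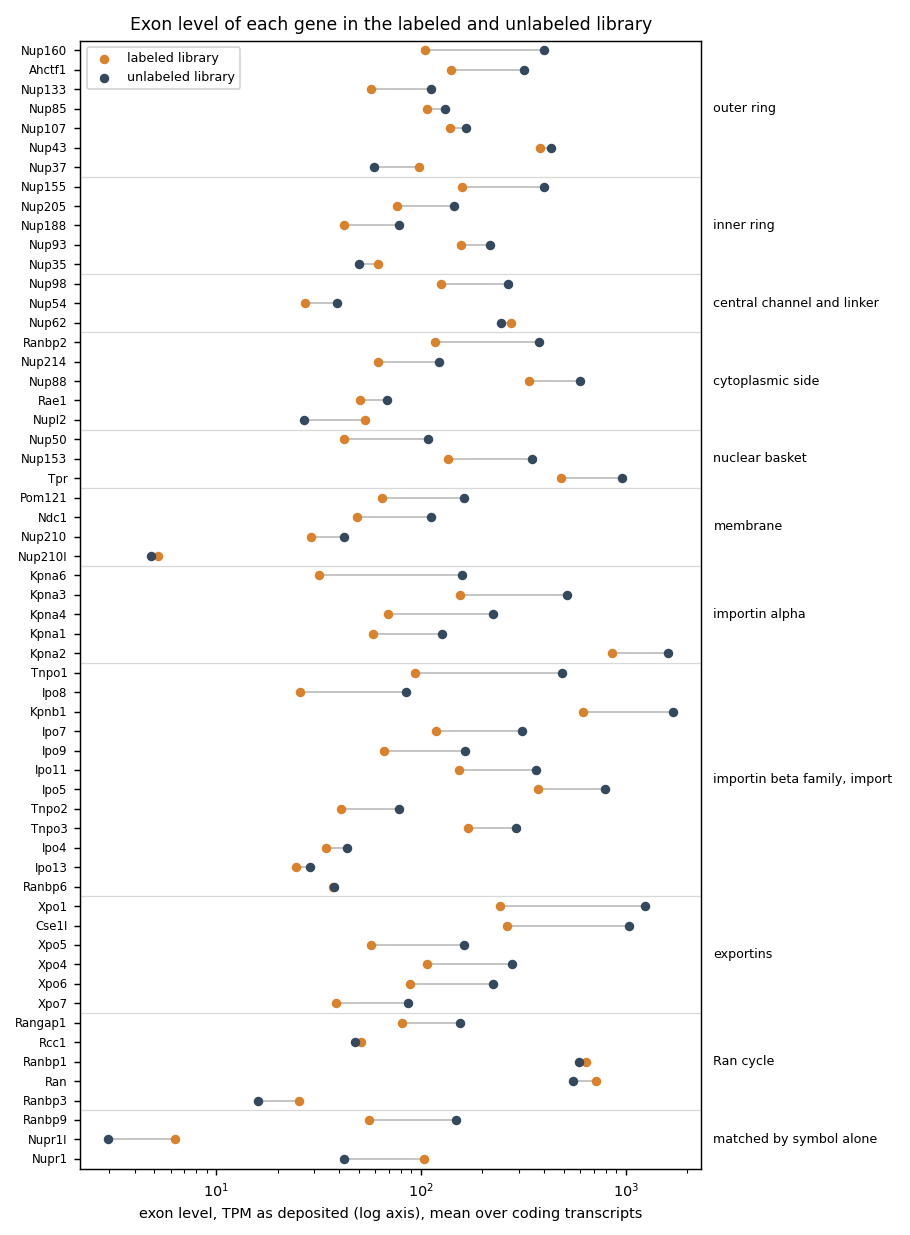
Exon level of each of the 58 genes in the labeled (orange) and the unlabeled library (dark blue), in TPM as deposited on a log axis, grouped by role and ordered by difference within a role. In most rows the unlabeled point lies to the right, with the widest gaps in Tnpo1, Xpo1 and Kpna6, and in the Ran cycle only Rangap1 has a wide gap of that direction.

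The roles did not lie at the same place. The 27 pore components had a median difference of -0.63, with 6 genes (22.2%) at least 2-fold below and 1 (3.70%) at least 2-fold above the median gene. Over all genes tested these shares were 14.8% and 21.9%. The 23 transport receptors had a median of -1.09, with 13 (56.5%) at least 2-fold below, none above, and 21 of 23 below the median gene. The 5 genes of the Ran cycle had a median of 0.38, with 4 of 5 above the median gene and none past 2-fold in either direction. These medians kept their order in each of the 5 other ways of computing the difference that were tried by role.

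**Figure D2:**
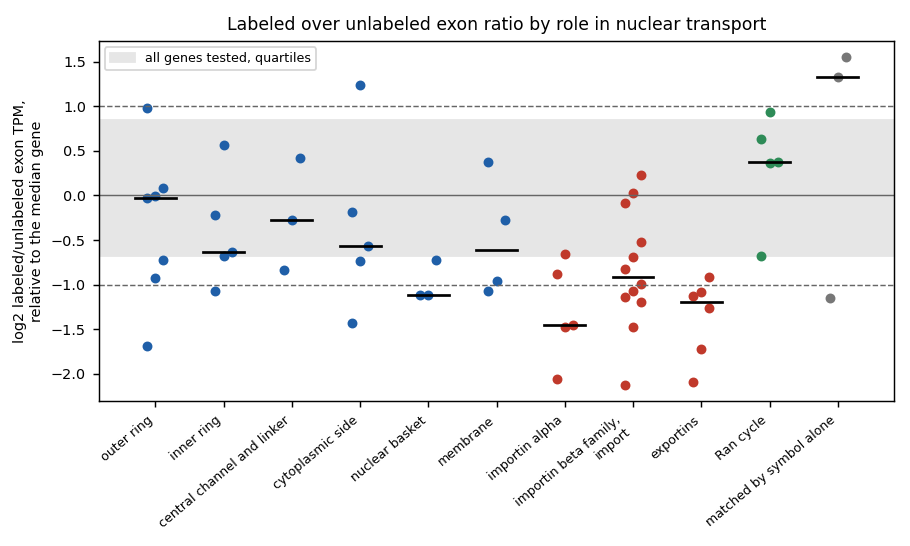
Difference of each gene (log2 labeled over unlabeled exon TPM, relative to the median gene) by role, with blue points for pore components, red for transport receptors, green for the Ran cycle and grey for genes matched by symbol alone. Black bars are medians, the grey band holds the quartiles of all 14127 genes (-0.68 and 0.84) and dashed lines mark 2-fold. All importin alpha, exportin and basket genes lie below 0.

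Among the exportins, which carry cargo out of the nucleus, all 6 genes lay below the median gene. At least 2-fold below it were 5 (83.3%), against 14.8% of all genes tested. Xpo1 (chr11:23256041-23298249 on GRCm38, plus strand), the receptor for proteins with a leucine-rich export signal, had 243.1 TPM in the labeled and 1240.0 TPM in the unlabeled library, a difference of -2.09. Cse1l, which returns importin alpha to the cytoplasm, had 264.5 TPM labeled and 1038.7 TPM unlabeled, a difference of -1.72. In unlabeled RNA, only Kpnb1 and Kpna2 had higher levels than these among the receptors, as means over transcripts. That order depends on the mean, since Xpo1 has 6 coding transcripts, Cse1l 3 and Kpnb1 1. Summed over transcripts, Cse1l had 3116.2 TPM unlabeled, above the 1701.3 TPM of Kpnb1. Xpo5, the export receptor of microRNA precursors, had 56.8 TPM labeled and 162.0 TPM unlabeled (difference -1.26). Xpo4 and Xpo6, receptors for smaller sets of proteins, had differences of -1.12 and -1.09. Xpo7 was the highest of the exportins, with 38.4 TPM labeled, 86.7 TPM unlabeled and a difference of -0.92.

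The importin alpha proteins recognise the classical nuclear localisation signal and bind importin beta, and all 5 genes tested lay below the median gene. Kpna6 was the lowest, with 31.95 TPM labeled and 158.4 TPM unlabeled (difference -2.05, chr4:129643980-129672767, minus strand). Kpna3 and Kpna4 followed with differences of -1.48 and -1.45. Kpna2, the importin alpha known to be abundant in embryonic stem cells, had the highest level of all 58 genes over the 2 libraries, with 860.6 TPM labeled and 1614.1 TPM unlabeled, and the smallest difference of its role (-0.65). Kpna1 had 58.1 TPM labeled and 127.5 TPM unlabeled (difference -0.88). Kpna2 has an annotated pseudogene copy, and reads shared with it could be split by the counting.

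The importin beta family held the lowest gene of all and also genes at the median. Tnpo1, the import receptor for many RNA-binding proteins, had 93.6 TPM labeled and 486.5 TPM unlabeled, a difference of -2.12 (chr13:98839019-98926384, minus strand). A processed pseudogene at 1244.1 TPM, Gm5453, lies within its span on the opposite strand. Kpnb1, importin beta, had the highest level of the family as a mean over transcripts, with 622.2 TPM labeled and 1701.3 TPM unlabeled (difference -1.19). An antisense gene, Gm11583, at 478.5 TPM overlaps Kpnb1. Whether counting used strand is not given in the sources used here, so reads of such overlapping genes cannot be told apart from those of Tnpo1 or Kpnb1. Ipo8 had 25.6 TPM labeled and 84.9 TPM unlabeled (difference -1.47), and Ipo7 and Ipo9 had differences of -1.14 and -1.07. At the other end, Ipo13, which works in both directions of transport, lay at 0.02 and Ipo4, which imports histones, at -0.09. The value of Ipo4 averages unlike isoforms, as its 30-exon and 5-exon isoforms both lay at -0.92 and a 3-exon isoform of 452 bases at 0.87. Ranbp6, a gene of this family without an intron value, had 37.2 TPM labeled and 37.9 TPM unlabeled (difference 0.23).

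In the outer ring, whose Y-shaped subcomplex is the scaffold of the pore, genes were spread from -1.68 to 0.98 around a median of -0.02. Nup160 had 104.3 TPM labeled and 400.3 TPM unlabeled (difference -1.68). It was the only 1 of 7 (14.3%) at least 2-fold below the median gene, against 14.8% of all genes tested. Nup133 had 57.2 TPM labeled and 112.6 TPM unlabeled (difference -0.72). Nup107 and Nup85, which belong to the same subcomplex, lay at -0.005 and -0.02, and the isoforms of Nup85 ran from -0.63 to 0.39. Nup43, with 1 transcript, had the highest level, with 383.5 TPM labeled and 431.4 TPM unlabeled. Its difference was 0.09, but -0.19 with all biotypes summed and -0.02 when centred on total exon TPM. Summed over its 3 transcripts, Ahctf1 had more, at 420.6 TPM labeled and 955.4 TPM unlabeled. Nup37 had the highest difference, with 97.6 TPM labeled and 59.3 TPM unlabeled (difference 0.98). Proteins of a single subcomplex thus came from genes that differed in labeled over unlabeled RNA.

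The inner ring, which anchors the channel, had a median difference of -0.63. Nup155, with 1 transcript, had both the highest level and the lowest difference, with 158.0 TPM labeled and 397.6 TPM unlabeled (difference -1.07). Summed over its 3 transcripts, Nup205 had more, at 229.57 TPM labeled and 437.35 TPM unlabeled. Nup93 also had more than Nup155 when its 2 transcripts were summed. They had 166.7 TPM and 148.2 TPM labeled, and 233.1 TPM and 204.0 TPM unlabeled. Nup35 had the highest difference, with 61.7 TPM labeled and 49.8 TPM unlabeled (difference 0.56). Nup188, a large scaffold protein of the inner ring, had 42.2 TPM labeled and 78.1 TPM unlabeled (difference -0.63) and the highest labeled intron to exon ratio of this role (0.572). That ratio differed by isoform, with 0.259 in the 44-exon isoform and 0.864 and 1.03 in the 7-exon ones of 534 bases. In the central channel, Nup62 had 276.1 TPM labeled and 246.4 TPM unlabeled (difference 0.42), Nup54, its partner, had 27.2 TPM and 39.1 TPM (difference -0.27), and Nup98, a linker that also binds chromatin, had 125.4 TPM and 266.8 TPM (difference -0.83). Nup62 lay above the median gene while the other 2 lay below it.

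On the cytoplasmic side, Ranbp2, the large SUMO ligase of the filaments, had 117.5 TPM labeled and 377.3 TPM unlabeled (difference -1.43), and annotated Ranbp2 pseudogenes could share reads with it. Nupl2, an export cofactor also called Nup42, had 53.3 TPM labeled and 27.0 TPM unlabeled (difference 1.24), and Nup88, which holds Nup214 at the pore, had 338.5 TPM and 600.2 TPM (difference -0.57). The 3 basket genes were alike, all below the median gene. Nup50 had 42.0 TPM labeled and 108.9 TPM unlabeled (difference -1.12), Nup153 had 135.9 TPM and 350.5 TPM (difference -1.11, or -0.72 with all biotypes summed), and Tpr, the filament protein of the basket, had 484.3 TPM and 955.6 TPM (difference -0.72).

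Of the membrane proteins that hold the pore in the envelope, Pom121 had 64.8 TPM labeled and 163.0 TPM unlabeled (difference -1.07), and Ndc1 had 48.7 TPM and 112.7 TPM (difference -0.96). Nup210, which is known to rise in differentiation, had 29.0 TPM labeled and 42.0 TPM unlabeled (difference -0.28). Its relative Nup210l was low, with 5.21 TPM and 4.79 TPM, and a pseudogene at 3808.5 TPM, Gm43712, lies within its span on the same strand.

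The Ran cycle genes lay mostly above the median gene, unlike the receptors that depend on them. Ran had 718.4 TPM labeled and 552.6 TPM unlabeled (difference 0.64), and Ranbp1, which helps to hydrolyse GTP on Ran, had 641.1 TPM and 589.7 TPM (difference 0.38). Rcc1, the exchange factor on chromatin, had a difference of 0.36, but small nucleolar RNAs at 617.4 TPM and 516.5 TPM (Snora73a and Snora73b) and their host Snhg3 lie within its span on the same strand. Ranbp3, a cofactor of Xpo1, was the highest, with 25.5 TPM labeled and 16.0 TPM unlabeled (difference 0.93). Rangap1 was the only 1 below the median gene, with 81.3 TPM labeled and 155.9 TPM unlabeled (difference -0.68). Ran also has a close copy, Rasl2-9, with which it could share reads.

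Of the genes matched by symbol alone, Nupr1, a stress-induced gene, had 103.5 TPM labeled and 42.2 TPM unlabeled (difference 1.55), and Ranbp9 had 55.8 TPM and 148.0 TPM (difference -1.15). Without these 3 genes the median of the remaining 55 was -0.72, the same to 2 decimals as with them. Of the 55, 19 (34.5%) were at least 2-fold below and 1 (1.82%) at least 2-fold above the median gene. The shares over all genes tested were 14.8% and 21.9%.

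Transport genes that the symbol rule did not match were spread more evenly. Of 22 such genes, the median difference was -0.21, with 12 below and 10 above the median gene. Of the 22, 18.2% were at least 2-fold below, against 14.8% of all genes tested, and 9.09% at least 2-fold above, against 21.9%. At least 2-fold below were Xpot, the export receptor of transfer RNA (-1.61), Seh1l, an outer ring protein (-1.60), Nup62cl (-1.41) and Nxt2 (-1.05). At least 2-fold above were Nxt1, a partner of the mRNA export factor Nxf1 (1.61), and Rangrf, a Ran-binding import factor (1.98). Other large assemblies lay on the other side of the median gene, with medians of 0.67 for 39 proteasome subunit genes, 1.68 for 76 cytosolic ribosomal protein genes and 0.77 for 74 mitochondrial ribosomal protein genes. These genes are also shorter, with median exonic lengths of 1316, 743 and 1208 bases against 3412 bases for the transport genes.

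Length went with the difference both among the transport genes and among all genes. Over the 58 genes, Spearman's rank correlation of the difference with exonic length was -0.58, and over all 14127 genes it was -0.35. With the unspliced span it was -0.48 and -0.29, and with the mean level -0.42 and -0.29. These are descriptions across genes, which are not replicates. When all genes were split into 5 bins of exonic length, the medians were 0.79 in the shortest bin, then 0.22, -0.05, -0.31 and -0.48 in the longest. The transport genes had medians of 0.38 (7 genes), -0.02 (3 genes), -0.22 (9 genes), -0.74 (13 genes) and -1.03 (26 genes) in the same bins, and 44.8% of them lay in the longest bin. They were below the median of their own length bin in 45 of 58 cases, and below that of their own bin of mean level in 39 of 58. The level bins were not alike. In the highest, 30 of 37 genes were below (median -0.99, against -0.46 for all genes). In the next, 9 of 17 were below (-0.27, against -0.25). The next 2 bins held 2 genes each, with medians of 0.48 (against 0.02) and 0.85 (against 0.32), and the lowest held none. The part of length or level in the difference was not tested beyond these bins.

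**Figure D3:**
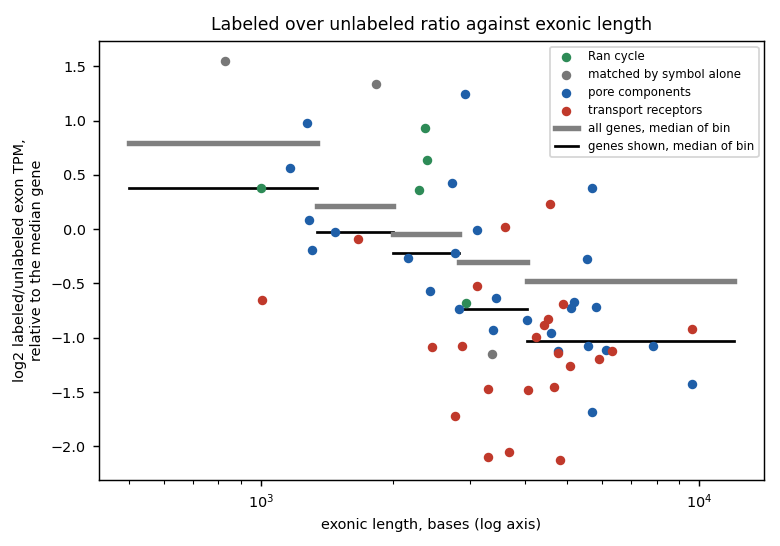
Difference of each of the 58 genes (log2 labeled over unlabeled exon TPM, relative to the median gene) against exonic length on a log axis, with points coloured by role. Grey and black lines give the median of all genes and of the genes shown in each of 5 length bins, and the outermost bins reach beyond the lines drawn. The black line lies below the grey one in all 5 bins.

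Introns mark RNA that is not yet spliced, and the intron to exon ratio within a library needs no scaling between libraries. All 4 values were above 0 in 56 of the genes, and in 13026 genes overall. The median ratio was 0.342 in labeled and 0.0330 in unlabeled RNA for the transport genes, against 0.577 and 0.122 for all genes. The labeled ratio was thus a median of 8.68 times the unlabeled ratio, against 4.65 times for all genes. It was 7.53 times for pore components and 12.4 times for transport receptors. The gap in the ratios to all genes was narrower at higher minimums. With a summed exon TPM above 10, the medians were 0.337 labeled and 0.0330 unlabeled (55 genes), against 0.477 and 0.0884 for all genes. With gene levels above 10, chosen after seeing the data, the transport medians were the same, against 0.430 and 0.0752 for all genes. Tnpo1 had ratios of 0.527 in labeled and 0.0136 in unlabeled RNA, the first 38.8 times the second, and Xpo1 had 0.329 and 0.0218, the first 15.1 times the second. The ratios of single genes ran widely. Ranbp1 (0.0371) and Ipo4 (0.0537) had the lowest labeled ratios, and Nup210l (2.67) and Xpo7 (1.10) the highest, followed by Kpna1 (0.932) and Ipo8 (0.864). In the latter genes the isoforms differed. Kpna1 had 0.627 in its 14-exon and 1.91 in its 5-exon isoform, and Ipo8 had 0.674 in its 25-exon and 1.11 in its 10-exon isoform.

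While the exons of most transport genes were low in labeled RNA, the introns of most were not. The intron difference, the log2 of labeled over unlabeled intron level relative to the median gene, had a median of 0.31, and 39 of 56 genes lay above the median gene. Introns above and exons below the median gene were found together in 28 of 56 genes (50%), against 27.1% of all genes. This was so for all 5 importin alpha genes, all 3 basket genes, 14 of 22 transport receptors and 14 of 27 pore components. Each part of the pair was already common by itself, with introns above in 69.6% and exons below in 75.9% of the genes with a value. Over all genes each was 50%. Whether the pair occurred more often than these single shares give was not tested. Tnpo1 had an intron difference of 0.94 beside an exon difference of -2.12, and Kpna6 0.25 beside -2.05. Several other genes with exons below the median gene had introns below it too, among them Xpo1 (-0.40), Xpo5 (-0.61), Ahctf1 (-0.63) and Nup93 (-0.55). Of the 6 exportins, 3 had introns above the median gene. Nup85 (-0.87) and Ipo4 (-1.28) were low in introns while their summed exons lay near the median gene. Their isoforms were spread, with exon differences from -0.63 to 0.39 in Nup85 and from -0.92 to 0.87 in Ipo4. Nupr1 was high in both, but its introns had 24.9 TPM labeled against only 0.38 TPM unlabeled, so its intron difference of 4.07 rests on a value near 0. Another annotated gene overlapped the span of 34 of the 59 genes, and in 27 that gene had a mean exon TPM of at least 10. Intron values of these genes may hold reads of the overlapping gene, which was not tested.

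**Figure D4:**
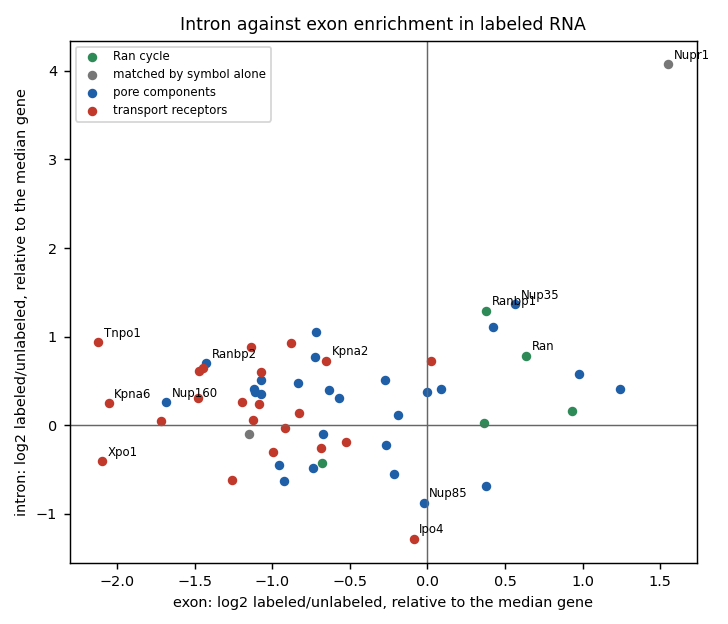
Intron difference against exon difference of the 56 genes with all 4 values, each as log2 labeled over unlabeled TPM relative to the median gene, coloured by role. The upper left part, introns above and exons below the median gene, holds 28 of the 56 genes, and Nupr1, whose unlabeled intron level is 0.38 TPM, is the point at the upper right.

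The model of the study takes the unlabeled (a) and labeled (b) intron to exon ratio of a transcript. It holds only where b is under 1 and above a, and the study proves a single solution for the rates where b exceeds 1/(2 - a). Between that line and the diagonal, where b equals a, the study estimated rates by minimizing a distance between observed and modelled ratios. That step was not run here, so no rate is given for those transcripts. Of the 129 transcripts, 121 passed the filters, with no value at 0 and exons above 1 TPM on average. In 10 of these (8.26%) the labeled ratio was 1 or more, against 28.2% of all 31386 transcripts, and 11 (9.09%) were incompatible with the model, against 33.3%. A single solution was available for 20 transcripts (16.5%) of 15 genes, against 22.5%, and most, 90 (74.4%), lay between the line and the diagonal, against 44.2% of all. The only transcript below the diagonal was a 3-exon isoform of Ipo4 (ENSMUST00000141499), with ratios of 0.0298 labeled and 0.0528 unlabeled. The gene Gm49378, at 40.7 TPM, overlaps Ipo4 on the same strand. The median mean exon TPM was 199.4 in the 90 transcripts and 26.5 in the 10 that reached a labeled ratio of 1.

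**Figure D5:**
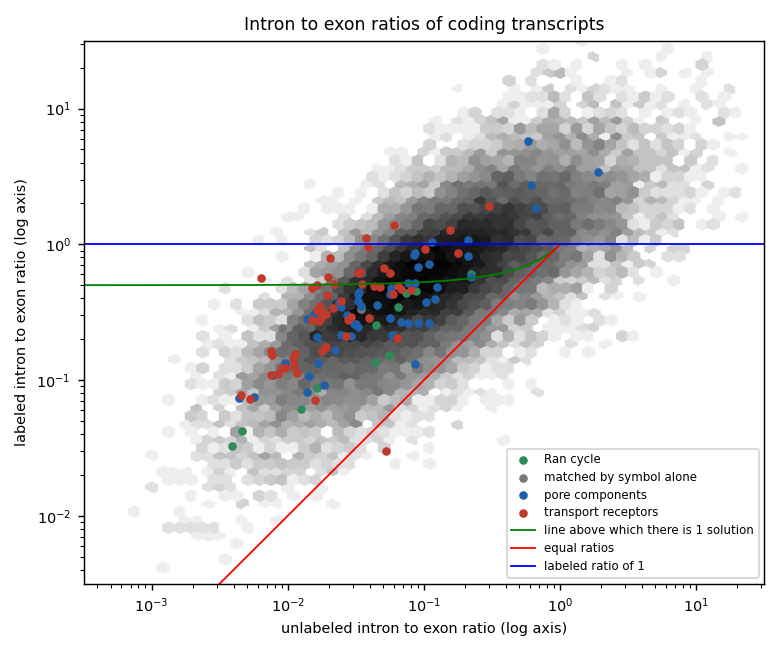
Labeled against unlabeled intron to exon ratio, both on log axes, for the 121 transcripts (coloured by role) over the density of all 31386 transcripts (grey). Above the blue line the labeled ratio is 1 or more, below the red line it is under the unlabeled ratio, and between the blue and green lines there is a single solution. Most coloured points lie under the green line.

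The half-lives of the 20 transcripts with a single solution had a median of 65.2 min (quartiles 36.8 and 150.5 min), against 34.6 min (14.8 and 93.6 min) in 7053 transcripts overall. They ran from 3.71 min for Nupl2 and 5.27 min for Ranbp3 to 1667 min for an isoform of Xpo6. These values depend on the isoform. Xpo6 had 74.5 min in a 3-exon isoform beside 1667 min in a 4-exon one, Kpna6 had 40.8 min and 442.2 min, and Tnpo1 had 77.8, 226.2 and 53.2 min. The Xpo6 isoform with 1667 min had a labeled ratio of 0.955, close to the limit of 1. The 20 transcripts were also higher in level, with a median exon TPM of 73.6 against 24.2 in the 7053. No half-lives were compared at matched level. Had the unlabeled library been total RNA, the median of the same 20 transcripts was 193.1 min, against 82.97 min in 7051 transcripts overall. Nupl2 then had 17.8 min and Ranbp3 19.8 min, and the Xpo6 isoform 1830 min.

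Isoforms of a gene gave different ratios in some genes and near-equal ones in others. In 33 genes with at least 2 coding isoforms at 10 TPM or more, the median range of the difference between isoforms was 0.37 on the log2 scale. Ipo11 (0.0027), Ranbp1 (0.0040) and Xpo4 (0.0057) had the narrowest ranges. Ipo4 (1.80), Kpna1 (1.69) and Xpo6 (1.57) had the widest. For Kpna1, the 14-exon isoform (ENSMUST00000004054) had 88.5 TPM labeled and 232.5 TPM unlabeled (difference -1.14), and a 5-exon isoform of 442 bases (ENSMUST00000173555) had 27.7 TPM and 22.5 TPM (difference 0.55). In 6 genes the isoforms lay on both sides of the median gene. Neither this count nor the isoform range was taken over all genes, so it is not known whether they are usual. Isoforms annotated as retaining an intron were higher in labeled over unlabeled RNA than the coding isoforms of the same gene in 20 of 29 genes (69.0%), which is close to the 70.3% of 5113 genes overall.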

How the data were processed

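The labeled and the unlabeled library of replicate 1, 1 sample per pool, were analysed. Per the labels and the methods, the authors aligned reads with STAR 2.5.0 to exonic and intronic sequences of Ensembl transcripts (GRCm38, mm10) and quantified them with RSEM. The deposited values are a relative abundance signal, named TPM by the authors, and no counts were used. Biotypes, symbols and coordinates came from GENCODE M21 (90.9% of 121429 transcripts matched). Gene values are sums over protein-coding transcripts, printed as means. Genes with a summed exon TPM above 1, averaged over the libraries, and transcripts with a mean exon TPM above 1 were kept, log2 ratios were centred on their median, and 2-fold stood in for a call. Half-lives came from the equation for transcripts with a single solution, on 4000 grid points, with the solver tested on simulated data. Named genes were, in each role, the highest and lowest in level or ratio among those at 10 TPM or more, and 10 chosen genes. The members, lists and motifs were chosen with earlier results of these data known. Genes outside that rule were named after their values were seen. Calculations used pandas 2.3.3, numpy 2.4.6 and scipy 1.17.1 in Python 3.11.15, and plots matplotlib 3.10.9.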

Additional observations from a re-analysis of the deposited data

How the results depend on the processing

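No paired analysis was possible because each pool has a single library, so nothing was tested. With no replicate error, a value was taken as moved when an alternative changed it by over 1.5 times. The median difference stayed negative, from -0.59 (summed exon TPM above 10) to -0.83 (centring on total exon TPM), and was -0.53 with gene levels above 10, an alternative chosen after seeing the data. Of the 34 named genes, under the 5 alternatives that applied to single genes, only Nupl2 moved by over 1.5-fold, to a difference of 1.88 with all biotypes summed. Nup153 lost its 2-fold call (-0.72) and Nup43 changed sign (-0.19) with all biotypes summed, Nup43 also with centring on total exon TPM (-0.02), and Kpna1, Ndc1, Nup37 and Xpo7, under 2-fold as reported, passed it under at least 1 alternative. With a summed exon TPM above 10, 12 genes were at least 2-fold below the median gene, and 10 with gene levels above 10. With a mean exon TPM above 10, 6 of 117 transcripts (5.13%) had a labeled ratio of 1 or more, against 14.6% of all transcripts, and 7 (5.98%) were incompatible, against 17.9%, so the gap to all transcripts was narrower. With 1 transcript per gene these counts were 2 of 56 (3.57%, against 22.4%) and 3 (5.36%, against 28.4%). After subtraction of leakage (0.0679 times the unlabeled value) they were 16 of 121 (13.2%, against 31.4%) and 17 (14.05%, against 36.6%). Taking the unlabeled library for total RNA gave a median half-life of 193.1 min, and leakage subtraction gave 82.4 min in 26 transcripts. The causes were not tested. Centring on total exon TPM moved the median gene by 0.11 on the log2 scale, and leakage subtraction by -0.12. Read depth is unknown, so no counting error could be put on any ratio of these genes.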
